A study of Mus musculus with 8 samples.

Results

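The core pluripotency factors examined here are 6 mouse genes, Pou5f1, Sox2, Nanog, Sall4, Lin28a and Utf1. They were chosen by name, and their rows were found by matching the Ensembl identifiers of the count table to GENCODE M21 symbols on mm10. The 6 genes are 6 of 36920 genes in the table, and all 6 passed the low-count filter that left 19173 genes for testing. Read counts per gene came from 8 RNA sequencing libraries of R1, a mouse embryonic stem (ES) cell line kept in serum with LIF, the cytokine that sustains self-renewal of such cells. The libraries form groups of 2 at D3 and D10, which closed the first and the second exposure to ML-792, and at D1 and D8, which preceded each exposure and are labelled control. ML-792 inhibits the SUMO E1 enzyme, which starts the attachment of the small protein SUMO to other proteins. Each exposure lasted 48 h at a labelled dose of 2.5 mM. No genotype change is labelled in any group, and every library comes from the same line, and the labels' protocol places both exposures in 1 culture course, so the D8 control cells came after the first exposure. No library at D3 or D10 lacked the inhibitor, so the inhibitor and the further time in culture cannot be told apart. The time tag of D1 replicate 2 reads day 0 while its title reads D1, and it was kept in D1. The molecule is labelled polyA RNA while the protocol describes a stranded total RNA kit with ribosomal RNA removal. No label says that the replicates were separate cultures, so p-values measure the spread between these samples, which may be technical.

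Pou5f1 encodes Oct4, a POU-domain transcription factor without which pluripotent cells are lost. It binds DNA together with Sox2, a factor with an HMG box, at paired octamer and Sox motifs near genes that ES cells use, among them Pou5f1, Sox2 and Nanog themselves. Nanog is a homeodomain factor whose level differs from cell to cell in serum, Utf1 is a chromatin-bound protein and a known target of Oct4 and Sox2, Sall4 is a zinc finger factor that works beside Oct4 and Nanog, and Lin28a is an RNA-binding protein that blocks the maturation of let-7 miRNAs.

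The 6 genes lie on 6 chromosomes. On mm10, Pou5f1 (ENSMUSG00000024406) spans chr17:35506018-35510772, Sox2 (ENSMUSG00000074637) chr3:34650405-34652461, Nanog (ENSMUSG00000012396) chr6:122707489-122714633 and Utf1 (ENSMUSG00000047751) chr7:139943789-139945112, all on the plus strand. Sall4 (ENSMUSG00000027547) spans chr2:168748332-168767943 and Lin28a (ENSMUSG00000050966) chr4:134003330-134018841, both on the minus strand. Sox2 has 1 exon, Utf1 has 2, Pou5f1 has 5, and Nanog, Sall4 and Lin28a have 4 each in their main coding transcripts. Genes annotated on the opposite strand overlap exons of 3 members. Gm19553 covers 317 exon bases of Pou5f1 (14.1% of them), Gm14261 covers 526 of Sall4 (9.5%) and Gm13061 covers 234 of Lin28a (5.9%). The strand setting of the counting is not given in the sources used here, so reads of these pairs may have been mixed, though the 3 antisense genes held 2 to 57 reads per library. Sox2ot, which contains Sox2 in its intron on the same strand, shares 0 exon bases with it. The pseudogene Nanog-ps1 held 0 to 1 reads per library.

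Promoter sequence is shown for the 3 factors whose transcripts were lower in ML-792 libraries, Nanog, Pou5f1 and Utf1, and for Sox2, which was not called, because Oct4 and Sox2 bind near these genes. Each sequence holds the 250 bases before a RefSeq transcription start (GRCm38.p6), read 5′ to 3′ on the plus strand, and capitals mark matches to the octamer motif ATGCAAA and to the Sox motif ACAANG on either strand. The windows are chr6:122707239-122707488 for Nanog, chr3:34649745-34649994 for Sox2, chr17:35505782-35506031 for Pou5f1 and chr7:139943606-139943855 for Utf1. The RefSeq start lies 410 bases before the GENCODE start of the gene for Sox2. It lies 67 bases after that start for Utf1 and 14 after it for Pou5f1, so these windows run into the annotated gene. For Nanog the distance is 0. Positions below count from the RefSeq start.
Nanog: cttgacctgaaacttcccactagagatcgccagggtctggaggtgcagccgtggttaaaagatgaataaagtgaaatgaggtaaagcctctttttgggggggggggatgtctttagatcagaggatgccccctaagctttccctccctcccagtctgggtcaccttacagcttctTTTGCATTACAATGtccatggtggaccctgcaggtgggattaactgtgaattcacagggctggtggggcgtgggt
Sox2: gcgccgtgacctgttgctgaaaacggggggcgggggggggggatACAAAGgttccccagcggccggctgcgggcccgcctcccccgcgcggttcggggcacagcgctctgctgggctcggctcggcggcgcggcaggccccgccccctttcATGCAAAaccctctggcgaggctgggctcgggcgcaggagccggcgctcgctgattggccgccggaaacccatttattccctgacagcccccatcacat
Pou5f1: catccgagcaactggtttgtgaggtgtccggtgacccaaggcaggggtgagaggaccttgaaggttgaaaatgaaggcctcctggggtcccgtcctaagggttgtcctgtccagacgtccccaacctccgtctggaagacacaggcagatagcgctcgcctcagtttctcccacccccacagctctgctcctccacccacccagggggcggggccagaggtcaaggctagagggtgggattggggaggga
Utf1: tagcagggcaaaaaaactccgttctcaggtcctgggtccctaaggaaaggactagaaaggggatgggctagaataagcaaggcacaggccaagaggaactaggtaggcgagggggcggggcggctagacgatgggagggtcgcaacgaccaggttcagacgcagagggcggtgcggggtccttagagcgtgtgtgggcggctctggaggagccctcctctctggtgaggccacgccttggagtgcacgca

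In the Nanog window the octamer, on the minus strand, and the Sox motif lie side by side as TTTGCATTACAATG, at positions -75 to -62 from the start. The joint motif TTTGCATNACAANG was found in 3 of 32851 mouse promoters of the same length (0.00913%), where the octamer alone occurred in 4.12% and the Sox motif alone in 36.3%. The count of 3 includes the Nanog window shown here. The 32851 promoters belong to 27025 genes, so a gene can count more than once, and Nanog has 2 RefSeq starts. The joint motif contains both single motifs, which share no base within it. The Sox2 window holds ATGCAAA at -99 to -93 and ACAAAG at -206 to -201, not side by side. The Pou5f1 and Utf1 windows hold neither motif. The GC box GGGCGG, which occurred in 32.7% of promoters, lies once in the Pou5f1 window, at -223 to -218 and -111 to -106 in the Sox2 window, and at 4 places in the Utf1 window, 1 pair of them sharing a base. AGGTCA, a nuclear receptor motif found in 14% of promoters, lies at -33 to -28 of Pou5f1 and, on the minus strand as TGACCT, at -244 to -239 of Sox2 and -248 to -243 of Nanog. The Lin28a window, read along the gene on the minus strand, holds 1 Sox motif in reverse complement, as CATTGT, at -96 to -91. Matches describe these letters only, and a missing match says nothing of binding elsewhere.

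The 8 libraries held 21040992 to 40835518 reads in genes, and each member had 1726 to 44091 reads in every library, so counting error is small beside each level. D8 replicate 2 stood apart from the others. Its levels, taken relative to the 8-library mean of each of 10569 coding genes, increased with the GC content of the gene (Spearman's rho = 0.643), where the other libraries had rho of -0.417 to 0.102. The ML-792 libraries D3 replicates 1 and 2 and D10 replicate 1 had the most negative values (-0.368, -0.333 and -0.417). GC content of the longest transcript was 63.5% for Utf1, 57.6% for Pou5f1, 53.8% for Sall4, 50.5% for Sox2, 50.1% for Lin28a and 45.8% for Nanog. The cells carried the defining ES transcripts in every library. Zfp42, a zinc finger gene of pluripotent cells, lay at 466 to 971 CPM (reads relative to the library total, after TMM scaling), and Esrrb, an orphan nuclear receptor of the naive state, at 236 to 657 CPM. The growth factor gene Fgf4 lay at 31.3 to 246 CPM. Zfp42, Esrrb and Fgf4 had their lowest means at D10, at 473, 254 and 35.7 CPM, against 712, 615 and 205 at D8.

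Per kilobase of exon, Pou5f1 was the most abundant of the 6 transcripts at every day and Sall4 the least. In D10 cells the mean levels were 346 CPM per kilobase for Pou5f1, 183 for Sox2, 121 for Nanog, 113 for Lin28a, 62.9 for Utf1 and 47.6 for Sall4, and the Nanog and Lin28a libraries overlapped. In D1 cells they were 545 CPM per kilobase for Pou5f1, 341 for Nanog, 158 for Sox2, 91.7 for Utf1, 84.1 for Lin28a and 46.7 for Sall4, with no overlap between neighbours in that order. Nanog thus stood below Sox2 at D10 and above it at D1, and Utf1 stood below Lin28a at D10 and above it at D1. In D3 cells Nanog (202 CPM per kilobase) and Sox2 (170) overlapped, and in D8 cells Utf1 (105) and Lin28a (95.3) overlapped. Summed over the 6 genes, D10 libraries held 2215 and 2216 CPM and D3 libraries 2361 to 2596, against 2819 to 3081 in D8 libraries and 2866 to 3175 in D1 libraries.

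**Figure D1:**
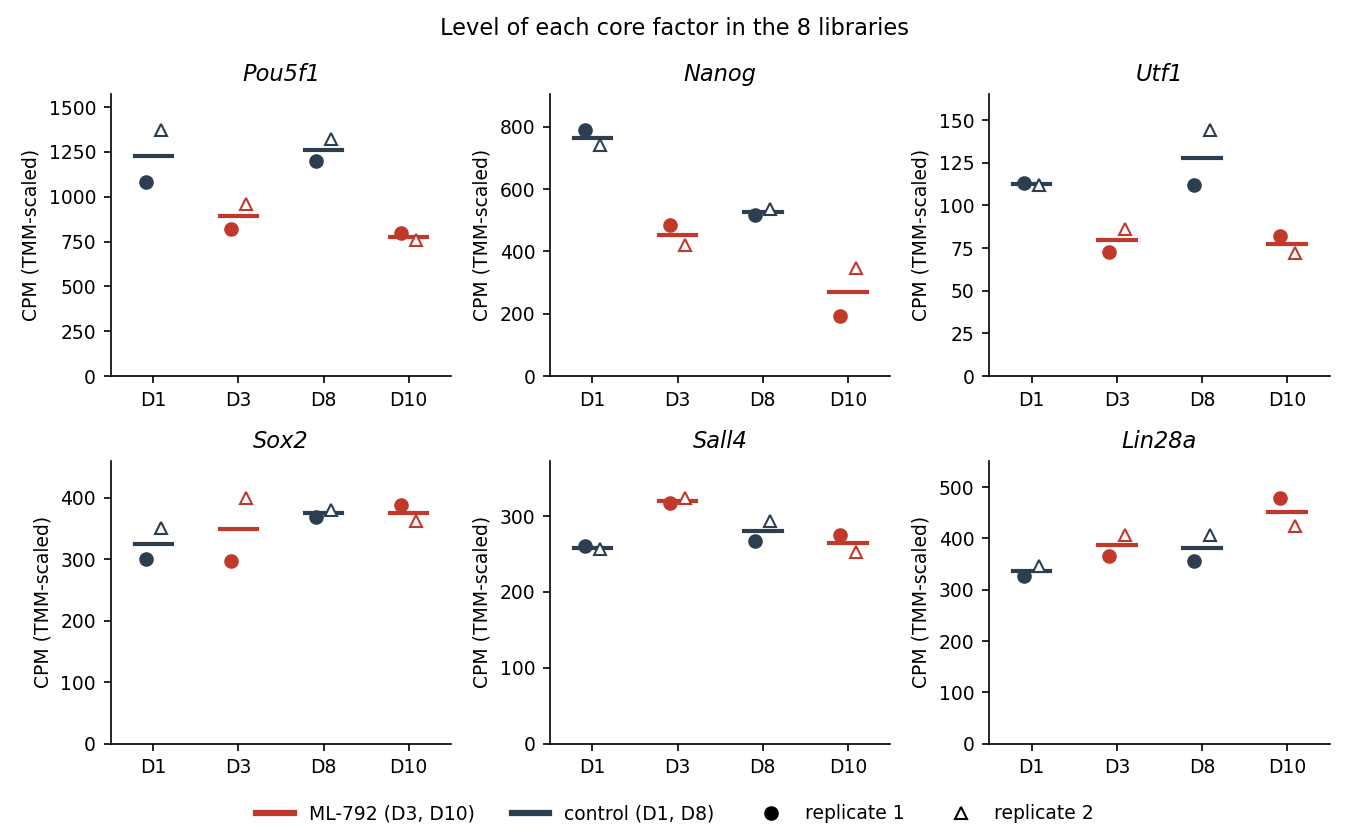
Level of each core factor (y axis, CPM after TMM scaling, from 0) in the 8 libraries by day (x axis), with filled circles for replicate 1, open triangles for replicate 2, bars for the mean of 2, red for ML-792 and dark blue for control. Pou5f1, Nanog and Utf1 lie lower at D3 than at D1 and lower at D10 than at D8 in both libraries of each pair of groups. Taken singly, these comparisons have that order in 32% and 27.6% of all genes, and the share in both at once was not computed. The Sox2 libraries overlap in both comparisons.

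Pou5f1, Nanog and Utf1 fell after the second exposure, to a fold of 0.617, 0.514 and 0.601 of their D8 level, while Sox2, Sall4 and Lin28a were not called. By edgeR's quasi-likelihood test with Benjamini-Hochberg adjustment over all tested genes, 3 of 6 members were called lower and 0 higher between D10 and D8 at an adjusted p under 0.05. Over all 19173 genes, 7.65% were called lower, 9.27% higher and 16.9% in all in that comparison. After the first exposure the same 3 genes had negative fold changes, but 0 of 6 members were called by edgeR, against 13% of all genes (5.1% lower and 7.92% higher). The 4 members Pou5f1, Nanog, Utf1 and Sall4 had an unadjusted p under 0.05 between D3 and D1, as did 5380 of the 19173 genes, and DESeq2 called 1, Nanog. With all 4 ML-792 libraries set against all 4 control libraries, 3 members were called lower, again Pou5f1, Nanog and Utf1, against 28.7% of all genes called in either direction. In that comparison both libraries of each ML-792 group lay below every control library for these 3 genes, as did those of 14.9% of all genes. The 4-against-4 comparison pools the same libraries and is no independent support. The cells were measured in bulk, so fewer cells that express a factor and less RNA per cell cannot be told apart.

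Pou5f1 was lower in ML-792 cells at both exposures, and its D8 libraries lay within the range of its D1 libraries. The D10 libraries had 796 and 758 CPM, the D3 libraries 823 and 959, the D8 libraries 1199 and 1321 and the D1 libraries 1080 and 1370. All 4 ML-792 libraries lay below all 4 control libraries. The mean was 777 ± 27.4 CPM at D10 against 1260 ± 86.3 at D8 (SD, n = 2 each), and the log2 fold change ± SE was -0.70 ± 0.15 (adjusted p = 0.018, edgeR). It was 891 ± 96.1 CPM at D3 against 1225 ± 205 at D1, a log2 fold change of -0.46 ± 0.15 that did not pass (adjusted p = 0.086). The pooled log2 fold change was -0.57 ± 0.11 (adjusted p = 0.0035, ML-792 over control). Corrected for GC content and length, Pou5f1 had a log2 fold change of -0.36 between D10 and D8 (adjusted p = 0.108) and of -0.31 between ML-792 and control (adjusted p = 0.0638), and neither was called. Without D8 replicate 2 the fold change between D10 and D8 was -0.66 (adjusted p = 0.0405), and the call was lost without D10 replicate 1 (-0.73, adjusted p = 0.0706) or D10 replicate 2 (-0.70, adjusted p = 0.0676). In D3 over D1, Pou5f1 had a log2 fold change of -0.26 with the GC and length correction (adjusted p = 0.239) and of -0.28 without D1 replicate 2 (adjusted p = 0.445), and it was called without D8 replicate 1 (-0.46, adjusted p = 0.0493) or D8 replicate 2 (-0.48, adjusted p = 0.0455).

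Sox2, the binding partner of Oct4, had overlapping treated and control libraries in both exposures. It had 389 and 363 CPM in the D10 libraries and 298 and 400 in the D3 libraries, against 369 and 381 at D8 and 300 and 351 at D1. The D10 values lay around those of D8, and the D3 values spanned those of D1. The log2 fold change was 0.00 ± 0.16 between D10 and D8 (adjusted p = 1, edgeR), with a 95% interval of -0.37 to 0.37. For D3 over D1 it was 0.10 ± 0.16 (adjusted p = 0.74), with an interval of -0.27 to 0.47. Over all libraries it was 0.05, with an interval of -0.21 to 0.31 for ML-792 over control, so changes of the size seen for Pou5f1 lay outside it.

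Nanog had the largest fold change of the 6 in each exposure when all libraries were used, and its levels also differed between the control days. The D10 libraries had 194 and 347 CPM against 517 and 536 at D8, and the D3 libraries had 485 and 420 against 788 and 740 at D1. In descending order of their means the days ran D1, D8, D3, D10, and the library values of no 2 days overlapped. The log2 fold change between D10 and D8 was -0.96 ± 0.24 (adjusted p = 0.027, edgeR), and the mean was 270 ± 108 CPM at D10 against 526 ± 13.8 at D8. D10 replicate 1 was the lowest of the 8 libraries, and without it the log2 fold change was -0.59 (adjusted p = 0.0819), while without D10 replicate 2 it was -1.48 (adjusted p = 0.00471) and without D8 replicate 2 -0.97 (adjusted p = 0.0569). Between D3 and D1 the log2 fold change was -0.76 ± 0.24 (adjusted p = 0.07), with 452 ± 46.1 CPM at D3 against 764 ± 33.8 at D1. Nanog was called in that comparison by DESeq2 (-0.75, adjusted p = 0.0305) and when D10 replicate 1 (adjusted p = 0.0113), D10 replicate 2 (0.0122) or D8 replicate 2 (0.0488) was left out. The pooled log2 fold change was -0.84 ± 0.25 (adjusted p = 0.032), and it was not called without D1 replicate 1 (0.0599), D1 replicate 2 (0.0794) or D10 replicate 2 (0.0602). The GC and length correction kept Nanog called between D10 and D8, at -1.02 (adjusted p = 0.0154).

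Utf1, the chromatin-bound target of Oct4 and Sox2, was, like Pou5f1, lower in the ML-792 libraries of both exposures. It had 82.1 and 72.3 CPM in the D10 libraries against 112 and 144 at D8, and 72.7 and 86.5 CPM in the D3 libraries against 113 and 112 at D1. The 4 ML-792 libraries lay below the 4 control libraries, D3 and D10 overlapped, and D8 replicate 2 alone lay well above the other controls. The log2 fold change was -0.73 ± 0.16 between D10 and D8 (adjusted p = 0.018, edgeR) and -0.50 ± 0.16 between D3 and D1 (adjusted p = 0.078). The pooled value was -0.62 ± 0.11 (adjusted p = 0.0029). Without D8 replicate 2 the fold change between D10 and D8 was -0.58 (adjusted p = 0.0531), and the call was also lost without D10 replicate 1 (-0.82, adjusted p = 0.0567) or D10 replicate 2 (-0.68, adjusted p = 0.0807). Without D8 replicate 1 (-0.50, adjusted p = 0.0302) or D8 replicate 2 (-0.52, adjusted p = 0.0284), Utf1 was called in D3 over D1. With the GC and length correction Utf1 was at -0.36 between D10 and D8 (adjusted p = 0.083) and at -0.23 between D3 and D1 (adjusted p = 0.255), neither of them called, and the pooled value was -0.29 (adjusted p = 0.0282).

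Sall4, the zinc finger factor, was highest at D3 and near its D1 level at D10. It had 317 and 324 CPM at D3 against 260 and 257 at D1, and 275 and 253 CPM at D10 against 267 and 293 at D8. The D3 libraries lay above those of every other day, and D10 overlapped D8. Against D1 alone, 32.8% of all genes lay higher at D3 without overlap, and the share against every other day was not computed. The log2 fold change between D3 and D1 was 0.31 ± 0.12 (adjusted p = 0.13, edgeR), and with the GC and length correction it was 0.40 and was called (adjusted p = 0.0441). Between D10 and D8 it was -0.09 ± 0.12 (adjusted p = 0.67), with a 95% interval of -0.36 to 0.19, and the correction turned its sign, to 0.15 (adjusted p = 0.411).

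Lin28a, the let-7 blocker, had its highest libraries at D10 and its lowest at D1. It had 479 and 424 CPM at D10 against 355 and 407 at D8, and 366 and 407 CPM at D3 against 326 and 347 at D1. In both exposures the ML-792 libraries lay above those of the preceding control day, and the D3 libraries overlapped those of D8. Taken singly, the comparisons had that order in 27.2% of all genes between D10 and D8 and 32.8% between D3 and D1. The share in both at once was not computed. The log2 fold changes of 0.25 ± 0.14 between D10 and D8 (adjusted p = 0.25) and 0.20 ± 0.14 between D3 and D1 (adjusted p = 0.38) were not called by edgeR. The pooled value of 0.23 ± 0.11 (adjusted p = 0.14) was called with the GC and length correction, at 0.31 (adjusted p = 0.0255).

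**Figure D2:**
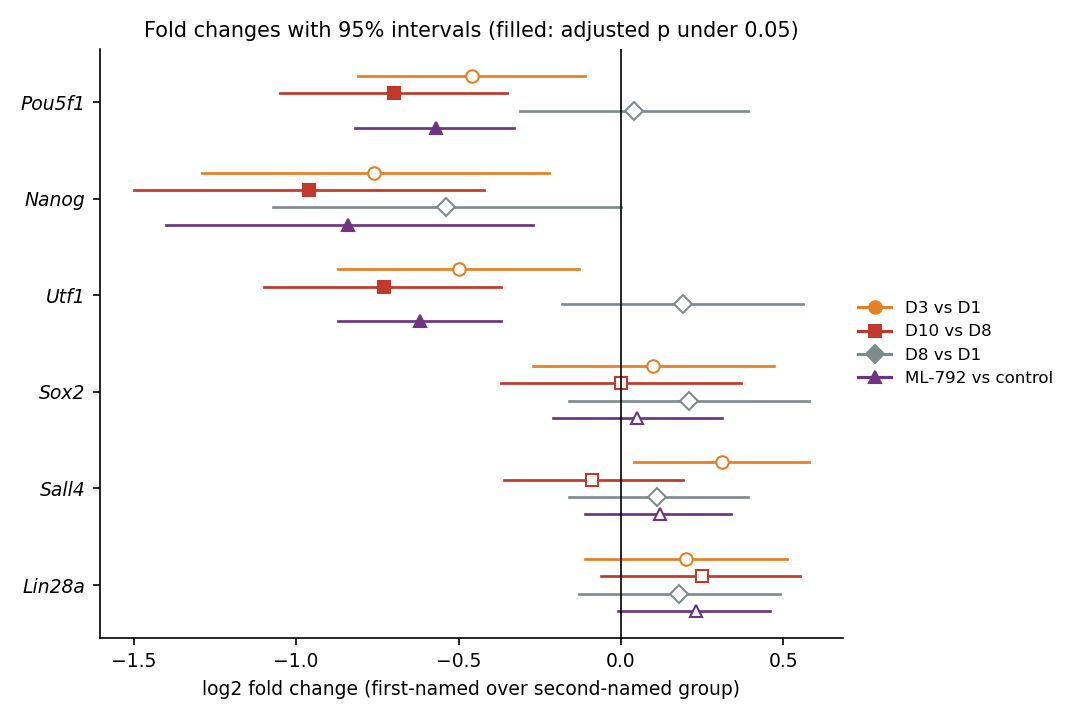
Log2 fold change (x axis, first-named over second-named group) of the 6 core factors (rows) in 4 comparisons, with horizontal lines for the 95% interval from the edgeR fit and filled markers for an adjusted p under 0.05. The filled markers are those of Pou5f1, Nanog and Utf1 in D10 over D8 and in ML-792 over control, and the Sox2 markers lie near 0.

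The responses to the 2 exposures were compared directly, as the D10 over D8 change minus the D3 over D1 change. In this test 0 of 6 members were called by edgeR and 0 by DESeq2, and 1, Sall4, had an unadjusted p under 0.05. Over all genes 0 were called by edgeR (0%), 3 were called by DESeq2, and 575 had an unadjusted p under 0.05. The difference was -0.24 for Pou5f1, with a 95% interval of -0.73 to 0.25, -0.20 for Nanog (-0.96 to 0.55) and -0.23 for Utf1 (-0.75 to 0.28). That of Sall4 was -0.39 ± 0.17 (unadjusted p = 0.046, adjusted p = 1).

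**Figure D3:**
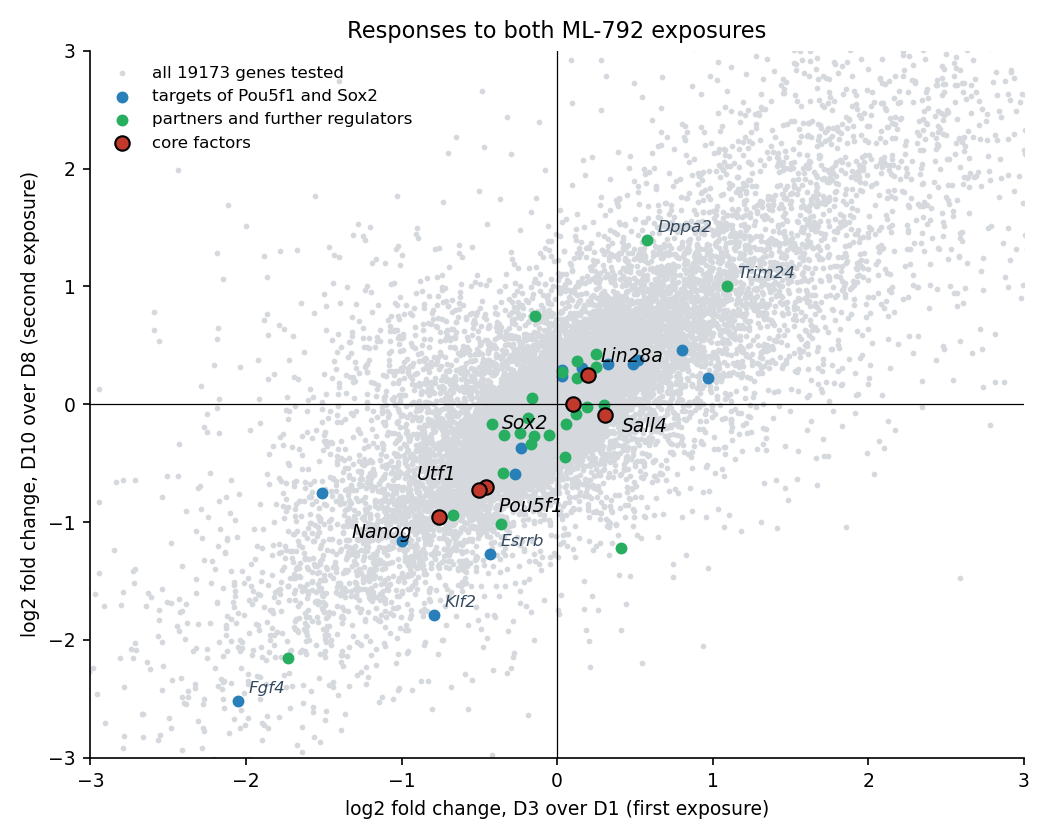
Log2 fold change of D3 over D1 (x axis) and of D10 over D8 (y axis), which share no library, for all 19173 tested genes (grey), the core factors (red), listed targets of Pou5f1 and Sox2 (blue) and listed partners and further regulators (green), with both axes ending at 3 in either direction. Nanog, Pou5f1 and Utf1 lie in the lower left, and Sox2 lies at 0.10 and 0.00.

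Between the control days, D8 over D1, 0 of 6 members were called by edgeR and 0 by DESeq2, while 0.177% of all genes were called. 1 member, Nanog, had an unadjusted p under 0.05, as did 2311 of all genes. Its 517 and 536 CPM at D8 lay below the 788 and 740 CPM at D1, an order without overlap that 20.3% of all genes shared, with a log2 fold change of -0.54 ± 0.24 (adjusted p = 0.41) and a 95% interval of -1.07 to 0.00. The fold changes of the other 5 lay between 0.04 for Pou5f1 and 0.21 for Sox2, with adjusted p of 0.59 to 0.93. Between D8 and D3, 2 members were called, both higher at D8, where 22.5% of all genes were called in either direction. They were Pou5f1 (0.50 ± 0.15, adjusted p = 0.047) and Utf1 (0.69 ± 0.16, adjusted p = 0.017), and the Nanog value was 0.22 ± 0.24 (adjusted p = 0.54). Both calls were lost with the GC and length correction, at 0.10 for Pou5f1 (adjusted p = 0.659) and 0.23 for Utf1 (adjusted p = 0.231), without D8 replicate 2 (adjusted p = 0.109 for Pou5f1 and 0.0611 for Utf1) and without D3 replicate 1 (0.274 and 0.144). Sall4, at -0.20 (adjusted p = 0.28), was called lower at D8 with the correction (-0.46, adjusted p = 0.0192). The Pou5f1 call was also lost with RLE size factors (adjusted p = 0.0513), with library totals (0.0643), and when D1 replicate 2 (0.0512), either D10 library (0.0536 and 0.0551) or D3 replicate 2 (0.0909) was left out.

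Between the 2 treated days, D10 over D3, 0 of 6 members were called by edgeR and 0 by DESeq2. Over all genes 0% were called by edgeR, 1073 had an unadjusted p under 0.05 and DESeq2 called 73. The 2 members Nanog (-0.74 ± 0.24, adjusted p = 0.72) and Sall4 (-0.28 ± 0.12, adjusted p = 0.89) had an unadjusted p under 0.05, and the D10 libraries of both lay below those of D3, as did those of 16.7% of all genes. Without D10 replicate 1 the Nanog value was -0.36, and without D10 replicate 2 it was -1.24. Set against the starting cells, D10 over D1, 2 members were called, both lower, and 12.8% of all genes were called in either direction. Nanog had a log2 fold change of -1.50 ± 0.24 (adjusted p = 0.0069), a fold of 0.354, and Pou5f1 of -0.66 ± 0.15 (adjusted p = 0.027). Utf1 (-0.54 ± 0.16, adjusted p = 0.06) and Lin28a (0.43 ± 0.14, adjusted p = 0.074) did not pass. The Pou5f1 call was lost when any of the 4 compared libraries was left out, with adjusted p of 0.0502 to 0.195. Without D8 replicate 1 or D8 replicate 2, Utf1 (adjusted p = 0.0226 and 0.0197) and Lin28a (0.0351 and 0.0492) were called as well, and with the GC and length correction Lin28a was called at 0.46 (adjusted p = 0.0271).

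Ratios within a library do not depend on its scaling, and they were set against Sox2 after the values had been seen, so they carry no test. They were not corrected for the GC trend of each library. Pou5f1 (57.6% GC) and Utf1 (63.5%) are richer in GC than Sox2 (50.5%), and the part of that trend was not tested. The share of all genes whose ratio to Sox2 separates by treatment was not computed. Per kilobase, Pou5f1 stood at 1.88 and 1.91 times Sox2 in D10 libraries and 2.53 and 2.19 times in D3 libraries, against 2.97 and 3.17 at D8 and 3.29 and 3.57 at D1. Every ML-792 ratio lay below every control ratio. Utf1 over Sox2 was 0.354 and 0.334 at D10 and 0.409 and 0.362 at D3, against 0.51 and 0.635 at D8 and 0.633 and 0.534 at D1, again without overlap. Nanog over Sox2 was 0.457 and 0.879 at D10 and 1.5 and 0.962 at D3, against 1.28 and 1.29 at D8 and 2.41 and 1.94 at D1. Here D3 replicate 1 lay above both D8 libraries, so the treated and control ratios of Nanog overlapped across the exposures and not within them. The Sall4 and Lin28a ratios to Sox2 spanned 0.259 to 0.396 and 0.495 to 0.635 over all libraries.

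**Figure D4:**
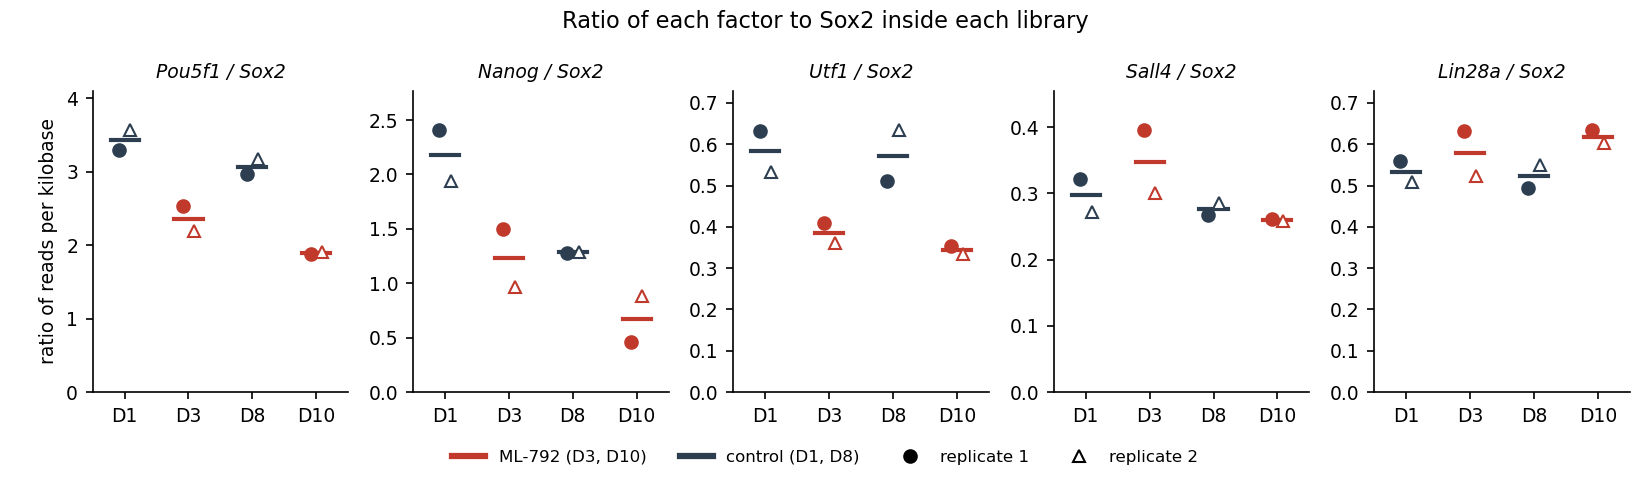
Ratio of each factor to Sox2 in reads per kilobase (y axes, from 0) in each library by day (x axis), with circles for replicate 1, triangles for replicate 2, bars for the mean of 2, red for ML-792 and dark blue for control. Pou5f1 over Sox2 lies at 1.88 to 2.53 in the ML-792 libraries and at 2.97 to 3.57 in the control libraries, without correction for GC content.

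The list of 15 genes that Oct4 and Sox2 bind and activate was mixed. Between D10 and D8, 5 of 15 were called lower and 0 higher, beside 7.65% and 9.27% of all genes, with a median log2 fold change of 0.22 against 0.03 over all genes. Fgf4, the growth factor under a paired octamer and Sox element, had 35.7 ± 6.21 CPM at D10 against 205 ± 3.97 at D8, a log2 fold change of -2.52 ± 0.17 (adjusted p = 0.00042, edgeR). Klf2 (-1.79 ± 0.26), Esrrb (-1.27 ± 0.14) and Tbx3 (-1.16 ± 0.14), transcription factors of the naive state, fell as well, and with Fgf4 they were called in 17 of 17 alternative analyses. Zfp42 was lower by a log2 fold change of -0.59 ± 0.16 (adjusted p = 0.038) and was called in 7 of 17. Between D3 and D1, 3 of 15 were called lower and 1 higher, beside 5.1% and 7.92% of all genes, with a median of 0.03 against 0.00. Fgf4 (-2.05 ± 0.17), Spp1, the matrix protein osteopontin (-1.51 ± 0.27), and Tbx3 (-1.0 ± 0.14) fell, and Fbxo15, an F-box gene, rose (0.97 ± 0.25, adjusted p = 0.038). The Fbxo15 level was 551 ± 187 CPM at D3 against 282 ± 18.1 at D1. Neither Fbxo15 (0.22 ± 0.25, adjusted p = 0.59, edgeR) nor Spp1 (-0.75 ± 0.27, adjusted p = 0.088) was called between D10 and D8. Between D8 and D1, 0 of 15 were called.

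Among 27 partners and further regulators of pluripotency, 5 were called lower and 3 higher between D10 and D8, 8 in all, where 16.9% of all genes were called, with a median log2 fold change of -0.12 against 0.03 over all genes. Sox15, a Sox family relative expressed in ES cells, had 2.26 ± 1.31 CPM at D10 against 10.3 ± 3.66 at D8 (-2.15 ± 0.44, adjusted p = 0.013, edgeR). Mybl2, a Myb factor of proliferating cells (-1.02 ± 0.17), and Sall1, the close relative of Sall4 (-0.94 ± 0.19), fell too. Dppa2, a chromatin factor of early embryos (1.39 ± 0.15), and Trim24, a chromatin reader (1.0 ± 0.18), rose. Dppa2 was also the 1 of 27 called between D8 and D1, lower at D8 (-1.08 ± 0.15, adjusted p = 0.046, edgeR). In that comparison 0.177% of all genes were called, and its calls were sensitive to single libraries, as given below. The mean Dppa2 level was 131 CPM at D1, 196 at D3, 61.8 at D8 and 162 at D10. Its rise to D10 thus started from a D8 level below that of D1. Between D3 and D1, 1 of 27 was called lower, Sox15 (-1.73 ± 0.45), and 2 higher, Trim24 (1.09 ± 0.18) and Dppa2 (0.58 ± 0.15), where 13% of all genes were called, with a median of 0.03 against 0.00. In the Lin28 and let-7 list of 21 genes, 3 were called lower and 0 higher in each exposure, a share near that of all genes (16.9% called between D10 and D8 and 13% between D3 and D1), with medians of -0.13 against 0.03 between D10 and D8 and -0.02 against 0.00 between D3 and D1. Igf2bp2, an RNA-binding target of let-7, fell in both (-1.19 ± 0.30 for D10 over D8 and -1.52 ± 0.30 for D3 over D1). Arid3a (-0.77 ± 0.23) and Mycn (-0.45 ± 0.12) were the others at D10 against D8, called in 6 and 5 of 17 alternatives, and Mycn and Trim71 stand in both lists. The let-7 miRNAs themselves were not measured. Lin28b, the second Lin28 gene, had a log2 fold change of 0.57 ± 0.39 between D10 and D8 (adjusted p = 0.36).

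Other Pou, Sox and Sall genes moved in both directions. Of 35 such genes 28 passed the filter, and 10 were called higher and 3 lower between D10 and D8, beside 9.27% and 7.65% of all genes, with a median log2 fold change of 0.76 against 0.03 over all genes. In D3 over D1, 7 were called higher and 2 lower, beside 7.92% and 5.1% of all genes, with a median of 0.61 against 0.00. Pou2f3, a POU factor of tuft cells, had 0.256 ± 0.0752 CPM at D10 against 8.87 ± 2.99 at D8 (-5.04 ± 0.49, adjusted p = 0.00099, edgeR) and 0.546 ± 0.181 CPM at D3 against 11.6 ± 4.93 at D1. Pou4f3, known from hair cells of the ear, rose to 3.23 ± 0.704 CPM at D10 against 0.565 ± 0.475 at D8, and Sox30, a germ cell factor, to 2.76 ± 0.125 against 0.582 ± 0.36. Several of them also stand in the other lists, Sox15 and Sall1 among the partners.

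Some markers of other cell types moved with the days, and their part in the results for the members was not tested. Over all genes, 7.65% were called lower and 9.27% higher between D10 and D8. The shares between D3 and D1 were 5.1% lower and 7.92% higher. The 14 primitive endoderm markers that passed the filter included 6 called higher and 0 lower at D8 over D1 (Gata6, Gata4, Sox17, Pdgfra, Dab2 and Foxq1), with summed levels over 15 genes of 1748 to 3098 CPM at D8 and 1466 to 2435 at D10, against 547 to 710 at D3 and 504 to 712 at D1. These calls between D8 and D1, where 0.177% of all genes were called, were lost with 1 library left out: 0 of the tested genes were called without D8 replicate 2, D1 replicate 1 or D1 replicate 2 (1374, 973 and 2259 had an unadjusted p under 0.05, edgeR). Between D10 and D8, 1 of the 14, Dab2, was called lower (-1.18 ± 0.32) and 0 higher, and between D3 and D1 2 were called higher. Sox17 lay at 11.7 ± 2.78 CPM at D10 and 14.8 ± 7.17 at D8. All 10 markers of the 2-cell-like state, a rare state of ES cells named for the 2-cell embryo, were called higher in each exposure, with summed levels of 597 to 613 CPM at D10 against 7.23 to 13.5 at D8, and 850 to 2749 CPM at D3 against 47.1 to 94.2 at D1. Zscan4c, Zscan4d, Zscan4f, Spz1 and Tcstv3 led them, with log2 fold changes of 5.02 to 6.30 between D10 and D8, and several belong to multi-copy families whose reads the counting could have split. Of 13 tested trophoblast markers 1, Tead4, was called lower between D10 and D8 (-2.35 ± 0.20) and 0 higher. Between D3 and D1, 1 was called higher and 1 lower. The counts called lower between D10 and D8, 1 of 13 here and 1 of 14 for primitive endoderm, were near the share of all genes. Cdx2, the defining gene, lay at 0.0932 to 1.33 CPM in all libraries. Elf5, Hand1, Gata3, Tfap2a and Plac1 stayed under 1 CPM in every library. Summed trophoblast levels over 14 genes were 125 to 248 CPM at D10 against 222 to 426 at D8, and 112 to 117 CPM at D3 against 121 to 151 at D1.

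Germ layer and fibroblast markers were low. The counts called below stand beside 9.27% of all genes called higher and 7.65% lower between D10 and D8. Between D3 and D1 these shares were 7.92% and 5.1%. The 12 mesoderm and primitive streak markers summed to 8.67 to 9.82 CPM at D10 against 5.3 to 8.49 at D8, and 7.49 to 8.88 CPM at D3 against 6.06 to 6.65 at D1. T (brachyury) was the 1 of 8 tested called higher between D10 and D8, at 2.06 ± 0.278 CPM at D10 against 0.486 ± 0.178 at D8, and 0 of 8 were called between D3 and D1. The 11 neural markers summed to 84.3 to 97.4 CPM at D10 against 45.2 to 60.1 at D8, and 74.4 to 79.6 CPM at D3 against 42.4 to 51.6 at D1. En2 was the 1 of 6 tested called higher in each exposure, at 17.5 ± 2.86 CPM at D10 against 5.23 ± 2.16 at D8. Sox1, of the same list, had lower means in both, at 8.32 ± 1.92 CPM at D10 against 12 ± 3.6 at D8. Its D3 mean was 8.87 ± 2.18 CPM against 14.9 ± 3.33 at D1. With ML-792 set against control, 3 of the 6 neural markers were called higher and 1 lower, where 28.7% of all genes were called in either direction. Fibroblast feeder markers summed to 30.3 to 45.2 CPM over 13 genes at D10 against 23.8 to 44.3 at D8, and 31 to 42.2 CPM at D3 against 27.6 to 31.1 at D1. Between D10 and D8, Fbn1 was called higher and Pdgfrb lower of 8 tested, and between D3 and D1 1 was called higher, while Col1a1 lay at 0.478 to 2.42 CPM in all libraries.

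The genes whose log2 CPM over the 8 libraries was most like that of each member were found by Pearson's r among 9124 protein-coding genes with a mean of at least 10 CPM. The 8 points share the 2 conditions, the days and the GC trend, so r is a description. Nearest to Pou5f1 were Med18, a Mediator subunit (r = 0.981), Cbfa2t2, a corepressor (r = 0.979), and Afg3l1 (r = 0.970). Utf1 had Hnrnpl (r = 0.993), Samhd1 (r = 0.993) and Smarcal1 (r = 0.991), and Nanog had Zbed5 (r = 0.971), the peptide transporter Slc15a1 (r = 0.968) and Phf11d (r = 0.963). Lin28a was nearest to Trp53bp1 (r = 0.975), Inppl1 (r = 0.970) and Plekhh1 (r = 0.968). Sox2 (Rragd, Kctd3 and Arid1b, r = 0.929 to 0.927) and Sall4 (Arfgap2, Ddx59 and Cog8, r = 0.932 to 0.899) had less close neighbours. Without D8 replicate 2, Samhd1 ranked first for Utf1, while Med18 ranked 9 for Pou5f1 and Afg3l1 25. Of these 18 genes, Cbfa2t2 (-0.70), Med18 (-0.74) and Slc15a1 (-1.76) were called lower and Plekhh1 (1.0) higher between D10 and D8, where 16.9% of all genes were called. The genes were picked from the same libraries, so these calls are no independent support.

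Among the members themselves, Pou5f1 and Utf1 had the closest profiles over the 8 libraries, at r = 0.92. Pou5f1 and Nanog had r = 0.72, Nanog and Utf1 r = 0.58, and Pou5f1 and Sox2 r = 0.07. Nanog and Lin28a ran in opposite directions at r = -0.93. These values share the same libraries, conditions and days, and no test was made on them.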

How the data were processed

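RNA was sequenced in 8 libraries of R1 cells, 2 for each of 4 days. The authors deposited raw counts, that is, reads per Ensembl gene, not normalized. Per the submitters' processing notes, bcl2fastq 2.17.1.14, STAR 2.5.0a and featureCounts were used, with build mm10. Not given in the sources used here are the annotation release and the strand and multi-mapping settings. A GENCODE M21 symbol was found for 36901 of 36920 identifiers.

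Genes were filtered with filterByExpr by group and scaled by TMM in edgeR 4.0.16 (R 4.3.3). All 8 libraries entered 1 quasi-likelihood fit of the 4 groups, with 4 residual degrees of freedom, and a second fit took treatment alone. The p-values (2-sided) received Benjamini-Hochberg adjustment over the 19173 genes left, and those under 0.05 were called. The SE is the log2 fold change divided by the square root of F. Levels are CPM, divided by exon length where genes are compared. Total reads per library were 21040992 to 40835518, and the 2 libraries of each group differed beyond sampling noise. Reads carry no molecular identifiers.

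The members and gene lists were chosen with earlier results of these data known. The lists were targets of Oct4 and Sox2, partners and further regulators, the Lin28 and let-7 axis, paralogues, and markers of trophoblast, primitive endoderm, mesoderm and primitive streak, neural ectoderm, fibroblasts and 2-cell-like cells. Of each, at most 5 called genes with the largest change between D10 and D8 were named, and 3 most similar genes were named per member; 1 gene that this rule picks is not reported here. Alternatives were RLE factors, library totals, no filter, a mean of at least 1 CPM, a replicate block, an offset for GC content and length (each library's smooth trend), both, each library left out, the 2 compared groups alone, exposure as a block in the pooled fit, and DESeq2 1.42.0.

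The fit was tested on simulated counts with 200 of 19173 genes changed. Between D10 and D8 it recovered 26% of genes changed 2-fold and 89% of those changed 4-fold, with 1.71% of calls false. Between D3 and D1 it recovered 17% and 88%, with 4.55% false, and in the pooled fit 70% and 96%, with 6.21% false. In the real data 2496 genes were called between D3 and D1, 3244 between D10 and D8 and 5505 in the pooled fit. The rates above describe the simulated counts only, and the share of false calls among the real ones was not estimated.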

Additional observations from a re-analysis of the deposited data

Results flagged for a closer look

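Utf1 in D8 replicate 2 stood apart from the other control libraries. It had 144 CPM there, against 112 and 113 CPM at D1 and 112 CPM in D8 replicate 1, and its gap to the nearest value was 0.952 of the whole range of the 4 control libraries, above Dixon's 95% critical value for 4 values. Both extremes of 12 sets of 4 libraries (6 genes in 2 conditions) were examined in this way, and chance alone marks about 1 set in 20. D8 replicate 2 is the library whose deviations followed GC content (rho = 0.643), and Utf1 has the highest GC content of the 6 genes (63.5%). Whether these are connected was not tested.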

How the results depend on the processing

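Each comparison was repeated under up to 17 alternatives. Between D3 and D1, where 0 members were called, 3 were called without the low-count filter, 1 with the GC and length correction (Sall4), 2 with that correction and the replicate block (Nanog and Sall4), 4 in the fit of the 2 compared groups alone, 1 by DESeq2 and 0 to 3 with 1 library left out. Between D10 and D8, where 3 were called, 1 remained with the GC and length correction (Nanog), 0 with the 2 groups alone, and 0 to 3 with 1 library left out. With the GC and length correction and the replicate block, Nanog (-1.04, adjusted p = 0.0054) and Utf1 (-0.36, 0.0486) were called lower between D10 and D8 by edgeR. Lin28a was called higher there (0.35, 0.0419), and Pou5f1 was not called (-0.36, 0.0734). Between D8 and D1, and between D10 and D3, 1 member (Nanog) was called without the filter. Between D8 and D3, where 2 were called, 1 was called with RLE factors, library totals or the stricter filter (Utf1) and 1 with either GC correction (Sall4, lower at D8, which was not among the 2), 0 with the 2 groups alone and 0 to 2 with 1 library left out. Between D10 and D1, 1 to 4 were called with 1 library left out. The cause was not tested.

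The replicate block called 3 members (Pou5f1, Nanog and Utf1) between D3 and D1 and 4 between D10 and D1, and 4187 genes against 2496 between D3 and D1 and 5298 against 3244 between D10 and D8. Deviations of same-numbered libraries correlated at 0.101 to 0.498, but each group has only 2 numbers and no label says that they mark a shared culture.

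The fold changes that turned sign were not called in the reported analysis or under these alternatives. Sox2 between D10 and D8 was -0.01 without the filter, -0.03 with the 2 groups alone and -0.04 to 0.02 with 1 library left out. Sall4 between D10 and D8 was 0.15 and 0.14 with the GC correction without and with the block. Between D8 and D1 both GC corrections gave -0.17 for Pou5f1, -0.06 for Sall4 and 0.00 for Utf1, and leaving out 1 library gave -0.12 to 0.23 for Pou5f1 and 0.00 to 0.36 for Utf1. Between D8 and D3, Sox2 was -0.04 with both GC corrections and -0.08 to 0.35 with 1 library left out, and Lin28a was 0.01 without the filter and -0.10 to 0.08. Sall4 between D10 and D1 was 0.00 with the 2 groups alone and -0.03 to 0.05 with 1 library left out. With 1 library left out, Sox2 was -0.15 to 0.29 between D3 and D1, -0.09 to 0.34 between D10 and D3 and -0.05 to 0.12 in the pooled fit, and Utf1 was -0.17 to 0.09 between D10 and D3. The difference between the responses was -0.30 to 0.13 for Sox2, -0.70 to 0.18 for Nanog and -0.05 to 0.13 for Lin28a.

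Counts over all genes also moved. Between D8 and D1, 34 genes were called, against 3 in the 2 groups alone, 21 with the stricter filter, 73 with the GC correction, 429 by DESeq2, 535 with the block, 542 with both and 973 without the filter. Between D3 and D1 the 2496 calls compared with 3847 without the filter, 4063 in the 2 groups alone and 4940 with block and GC correction, and between D10 and D8 the 3244 calls compared with 1465 in the 2 groups alone and 5497. Between D10 and D1 (2462) the counts were 3775 without the filter, 4100 with the block and 4958 with block and GC correction, and between D8 and D3 (4312) 6547 and 6536 with the block alone and with both. Between D10 and D3 (0) they were 373 without the filter, 28 with the block and 61 with both, and the difference between responses (0) had 66 without the filter. With 1 library left out, 387 to 3238 were called between D3 and D1, 1420 to 4304 between D10 and D8, 0 to 436 between D8 and D1, 1522 to 5869 between D8 and D3 and 570 to 3256 between D10 and D1. With library totals alone the median log2 fold change of all genes between D10 and D8 was 0.106, against 0.0312, and 1952 genes were called higher and 1174 lower, against 1777 and 1467. With 1 library of a group left out, the lone one is assumed to vary like the other groups. Of the listed genes named above, Sox15 and Fbn1 kept their calls between D10 and D8 in 15 of 17 alternatives, Sall1 in 16, Igf2bp2, Dab2 and Pdgfrb in 14, Pou4f3 in 13 and T in 12.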
